A study of Danio rerio with 6 samples.

Results

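DEAD and DEAH box proteins are a large family of helicases, enzymes that use ATP to unwind RNA duplexes and to remodel complexes of RNA and protein. The family is named for the amino acids of a conserved motif that takes part in ATP hydrolysis. Different members act at nearly every step of the life of an RNA: transcription, pre-mRNA splicing, ribosome assembly in the nucleolus, export from the nucleus, translation and decay. In embryos, many of these transcripts are supplied by the mother and later replaced by the embryo's own.

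The transcripts described here are those of all probe sets whose current gene symbol starts with ddx or dhx followed by a digit, with the germ cell gene ddx4 left out. They comprise 51 probe sets of 36 genes, out of 15617 probe sets and 8793 named genes on an Affymetrix zebrafish array. The RefSeq gene table lists 50 such genes, and no probe set was named for the other 14: ddx10, ddx24, ddx43, ddx59, dhx8, dhx9, dhx30, dhx32b, dhx33, dhx35, dhx36, dhx38, dhx40 and dhx58. Where a gene has several probe sets they are numbered, with set 1 the brightest over the 6 arrays.

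RNA of whole zebrafish embryos of the TL strain was measured on 6 arrays. There were 2 arrays of embryos given a morpholino against Spt5, a subunit of the transcription elongation factor DSIF, and 2 of embryos given a standard control morpholino, both collected at 21 hours post-fertilization (hpf) and called Spt5 and control morphants here. The other 2 arrays were of untreated embryos, 1 at 21 hpf and 1 at 5 hpf. Each injected embryo received about 2.5 pmol of an oligonucleotide with a 3′ carboxyfluorescein, a fluorescent tag, at the one- or two-cell stage, so both morpholino groups share injection and tag. The Spt5 morpholino is shown because it is what sets the Spt5 morphants apart from the control morphants by design. In lower case, 5′ to 3′, this antisense oligonucleotide of 25 nt is:

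Spt5 morpholino: gtttctctacagtctgtcgctcctg

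Morpholinos block translation or splicing of their target and can leave its transcript in place, so the level of the target mRNA need not show the knockdown. The supt5h transcript, which encodes Spt5, had log2 intensities of 7.72 and 7.42 on the Spt5 morpholino arrays and 7.61 and 7.43 on the control morpholino arrays, a difference of 0.05 (limma adjusted p = 0.804, n = 2 and 2). Values of the 2 groups overlapped. Deposited intensities had medians of 26.8 to 36.1 in Spt5 morphants, 32.4 to 43.8 in control morphants, and 40.1 and 18.1 in the untreated samples of 21 and 5 hpf. The 3′ to 5′ signal ratio of GAPDH, a sign of RNA quality, was 1.39 and 1.42 in Spt5 morphants, 1.70 and 1.76 in control morphants, and 1.24 and 0.95 in the untreated samples of 21 and 5 hpf. The same ratio of acta1, a muscle actin, was 6.94 and 6.99 in Spt5 morphants and 9.91 and 9.61 in control morphants. In the untreated samples of 21 and 5 hpf it was 7.59 and 1.96. Both ratios thus moved with the groups and the ages, and their part in the differences below was not tested. The muscle transcript acta1a was higher by 6.24 on the log2 scale at 21 hpf than at 5 hpf, with 1 array per age. The actin ratio therefore need not reflect RNA quality alone between the ages.

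The first comparison asked which helicase transcripts respond to the Spt5 morpholino, by setting Spt5 morphants against control morphants at 21 hpf. Of the 51 helicase probe sets, 44 (31 genes) reached a log2 intensity of 5 on at least 2 of the 4 arrays and were tested. Transcripts of ddx42, ddx31, ddx3xb, ddx18, ddx21, ddx39aa, ddx55, ddx28 and ddx3xa fell, and those of ddx39b, ddx23, ddx56, ddx61 and ddx46 rose, each on at least 1 probe set. In all, 5 probe sets rose (11.4% of those tested), where 24.3% of all probe sets tested on the array did, and 12 fell (27.3%), where 23.0% did. The share that fell was thus near that of the whole array, and the share that rose was below it. The median difference of the helicase probe sets was -0.09 on the log2 scale, against 0.04 over all 8457 probe sets tested, and single differences ran from -3.26 to 0.76. Calls are at an adjusted p of 0.05 in limma, after quantile normalization over the 4 arrays.

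How the arrays are scaled sets the split. The median of all probe sets was at -0.21 with the values as deposited and at -0.27 after centring on spike-in controls, and all changes are therefore given relative to the quantile-normalized distribution. As deposited, 0 of 44 tested helicase probe sets rose and 9 fell, where 305 of all 8485 probe sets tested rose and 1350 fell. With spike-in centring 4 of 43 rose and 23 fell, where 910 and 3516 of all 8480 did. The share that rose was then near that of the whole array, and the share that fell was above it. None of the 17 called helicase probe sets turned its sign under either of these scalings. Both scalings lowered all 17 differences, so the 12 that fell could not turn. Of the 5 that rose, ddx46 set 2 was the smallest, at 0.13 as deposited and 0.08 with spike-in centring. Leaving out 1 Spt5 morpholino array, whichever it was, gave 3 that rose, and leaving out either control morpholino array gave 6 that fell. The numbers over all probe sets dropped as well, to 1068 and 975 that rose without Spt5 morpholino replicates 1 and 2, and to 1158 and 1176 that fell without control morpholino replicates 1 and 2, against 2059 and 1942 with all 4 arrays. Without the filter on dim probe sets, 3 calls were left, ddx42 and both sets of ddx3xb.

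**Figure D1:**
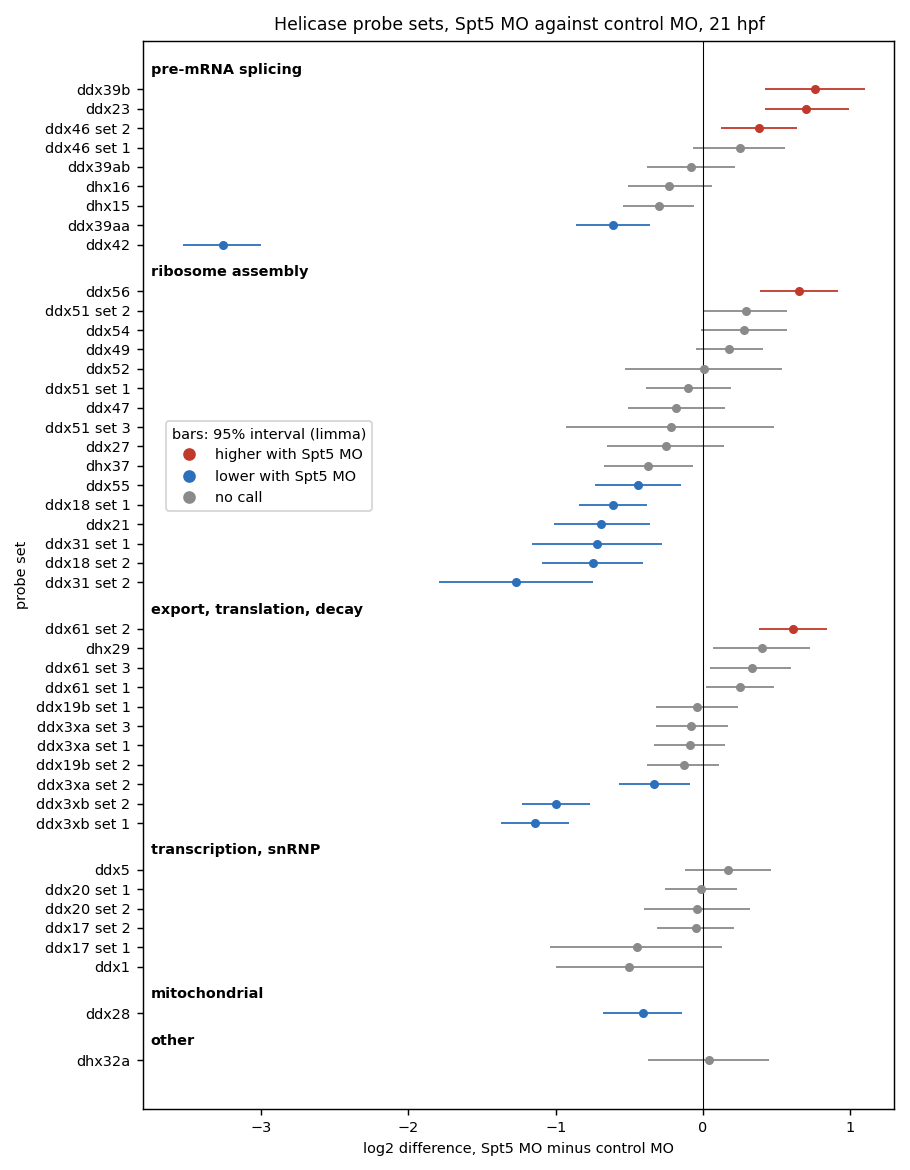
Log2 difference of each tested helicase probe set, Spt5 morpholino minus control morpholino at 21 hpf (x axis), for 44 probe sets grouped by role (y axis). Points are limma estimates with 95% intervals (n = 2 and 2 arrays). Red points rose, blue points fell, and grey points were not called. ddx42 at -3.26 lies far to the left of all others, and the remaining differences run from -1.27 to 0.76.

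Helicases of pre-mRNA splicing numbered 8 genes with 9 probe sets, all tested. Of these, 3 rose and 2 fell, with a median of -0.08, where 24.3% of all probe sets tested rose and 23.0% fell. With 1 probe set per gene, 2 of 8 genes rose and 2 fell, where 22.5% and 24.6% of all named genes did. The largest difference of the family was in ddx42, whose human counterpart associates with the SF3b part of the U2 snRNP. Its probe set read 3.74 and 3.67 on the Spt5 morpholino arrays and 6.89 and 7.05 on the control morpholino arrays. Both Spt5 morpholino arrays lay below a log2 of 5, so the transcript was at least 3.91-fold lower in Spt5 morphants. The measured difference was -3.26 ± 0.10 (SE, n = 2 and 2, limma adjusted p = 4.0e-04). The SD within groups was 0.11 in control morphants and 0.05 in Spt5 morphants. The latter comes from values below a log2 of 5 and does not measure the spread of the transcript. This probe set passed the filter only through the control morpholino arrays, and without either of them it was not tested.

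The same transcript was set against untreated embryos at 21 hpf in a fit over the 5 arrays of that age. There it read 3.78 and 3.71 in Spt5 morphants and 6.06 in untreated embryos, a measured difference of -2.31 (limma adjusted p = 9.9e-04) and at least 2.09-fold lower. With the control morpholino it read 6.92 and 7.07, a difference of 0.93 from untreated embryos (limma adjusted p = 0.0395). The untreated value lay between those of the injected groups. The call on the control morpholino was lost whenever any morpholino array was left out.

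Several paralogs in the family of the splicing and export factor UAP56 are on the array, and they did not move together. ddx39aa read 8.98 and 9.07 in Spt5 morphants and 9.68 and 9.59 in control morphants, a difference of -0.61 ± 0.10 on the log2 scale (SE, limma adjusted p = 0.00716). ddx39b read 6.60 and 6.74 in Spt5 morphants and 6.05 and 5.76 in control morphants, a rise of 0.76 ± 0.13 (SE, limma adjusted p = 0.00928). ddx39ab, at 10.43 and 10.18 in Spt5 morphants and 10.40 and 10.36 in control morphants, differed by -0.08, with a 95% interval of -0.38 to 0.22. The groups overlapped only for ddx39ab, and the rise of ddx39b was not called as deposited. Set against untreated embryos, ddx39aa differed by -0.75 in Spt5 morphants and -0.14 in control morphants, and the first of these was called. ddx39b differed from untreated embryos by 0.17 in Spt5 morphants and by -0.58 in control morphants, and neither was called (limma adjusted p = 0.439 and 0.126).

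Helicases that act as the spliceosome forms were also among those that rose. ddx23, whose counterpart removes the U1 snRNP from the 5′ splice site, read 5.55 and 5.40 in Spt5 morphants and 4.85 and 4.70 in control morphants, all control values below a log2 of 5. After quantile normalization its mean was at least 1.39-fold higher in Spt5 morphants, with a measured difference of 0.70 ± 0.11 (SE, limma adjusted p = 0.00695). The difference was 0.41 as deposited and 0.36 with spike-in centring. Only the Spt5 morpholino arrays carried this probe set past the filter, so it was not tested without either of them, and it was not called as deposited or without the filter (limma adjusted p = 0.416 and 0.0735). Against untreated embryos, at 5.68, its difference was -0.16 in Spt5 morphants and, measured on control arrays below a log2 of 5, -0.85 in control morphants, which is at least 1.6-fold lower (limma adjusted p = 0.387 and 0.0514). Neither was called. ddx46, whose counterpart helps the U2 snRNP onto the branch site, read 6.33 and 6.26 in Spt5 morphants and 5.99 and 5.85 in control morphants on set 2, a rise of 0.38 (limma adjusted p = 0.0321). Against untreated embryos, set 2 differed by 0.33 in Spt5 morphants and by -0.04 in control morphants, and neither was called. Set 1 differed by 0.25 between the morphants and was not called, and the call on set 2 was lost without any 1 of the 4 arrays, at differences of 0.31 to 0.45. That call was also lost as deposited, at 0.13, and with spike-in centring, at 0.08. dhx15, which disassembles the spliceosome, and dhx16, which activates it, differed by -0.30 and -0.23 and were not called (limma adjusted p = 0.0519 and 0.151). With spike-in centring both were called, at -0.58 and -0.50, and as deposited neither was, at -0.53 and -0.45. dhx15 was also called with a filter at log2 6 and with a replicate block (limma adjusted p = 0.0273 and 0.0429).

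Helicases of ribosome assembly formed the largest role, with 12 genes and 17 probe sets, of which 16 were tested. Of these, 1 rose and 6 fell, with a median of -0.24, where 24.3% of all probe sets tested rose and 23.0% fell. With 1 probe set per gene, 1 of 12 genes rose and 4 fell, where 22.5% and 24.6% of all named genes did. ddx31, a nucleolar protein of the large ribosomal subunit pathway, fell on both of its probe sets. Set 2 read 4.62 and 4.04 in Spt5 morphants and 5.56 and 5.64 in control morphants, at least 1.52-fold lower, with a measured difference of -1.27 ± 0.20 (SE, limma adjusted p = 0.00718). Set 1 read 5.05 and 4.59 in Spt5 morphants and 5.52 and 5.56 in control morphants, a difference of -0.72 ± 0.17 (SE, limma adjusted p = 0.0226). Without control morpholino replicate 1, set 1 was at -0.74 with an adjusted p of 0.0561 in limma. Against untreated embryos, set 2 fell in Spt5 morphants (-1.25, at least 1.55-fold, limma adjusted p = 0.0157) and was at 0.01 in control morphants. Set 1 was at -0.52 and 0.19 in the same comparisons, not called. Neither set overlapped between the morphants, as is likely for sets called on the same arrays. Set 2 passed the filter only through the control morpholino arrays.

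ddx18 and ddx21 are nucleolar helicases of rRNA processing, and ddx21 is also known to act in transcription by RNA polymerases I and II in human cells. ddx18 read 8.46 and 8.49 in Spt5 morphants and 9.09 and 9.08 in control morphants on set 1, a difference of -0.61 ± 0.09 (SE, limma adjusted p = 0.00538). Its set 2 read 7.78 and 7.50 in Spt5 morphants and 8.47 and 8.32 in control morphants, a difference of -0.75 (limma adjusted p = 0.00952). Both sets thus moved by a similar amount, to 0.65 and 0.59 of the control level. ddx21 read 8.61 and 8.38 in Spt5 morphants and 9.27 and 9.09 in control morphants, a difference of -0.69 ± 0.13 (SE, limma adjusted p = 0.0106). Against untreated embryos the differences in Spt5 morphants were -0.37 and -0.74 for the 2 sets of ddx18 and -0.57 for ddx21, all called. With the control morpholino they were 0.26, 0.01 and 0.12, none called.

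ddx55, of large subunit assembly, read 6.24 and 6.02 in Spt5 morphants and 6.62 and 6.53 in control morphants, a difference of -0.44 (limma adjusted p = 0.0287). It was not called without Spt5 morpholino replicate 2, at -0.33, or without control morpholino replicate 1 or 2, at -0.40 and -0.49. Against untreated embryos it differed by -0.29 in Spt5 morphants and 0.15 in control morphants, neither called. ddx56, a nucleolar helicase of the same pathway, went the other way. It read 8.39 and 8.23 in Spt5 morphants and 7.69 and 7.63 in control morphants, a rise of 0.65 ± 0.10 (SE, limma adjusted p = 0.00688) that was not called as deposited. The same probe set was higher by 0.69 in Spt5 morphants than in untreated embryos (limma adjusted p = 0.0120), and by 0.04 in control morphants.

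The other 7 genes of ribosome assembly, ddx27, ddx47, ddx49, ddx51, ddx52, ddx54 and dhx37, had no call, with differences of -0.37 to 0.29. In yeast, the counterparts of ddx47, ddx49, ddx52 and dhx37 act on the small subunit and those of ddx27, ddx51 and ddx54 on the large one. dhx37, whose counterpart releases the U3 snoRNA from the small subunit precursor, was closest to one at -0.37 (limma adjusted p = 0.0531). ddx51 was the 1 gene whose tested probe sets differed in sign. Set 1 read 6.64 and 6.42 in Spt5 morphants and 6.65 and 6.60 in control morphants, a difference of -0.10. Set 2 read 5.24 and 5.36 in Spt5 morphants and 5.09 and 4.92 in control morphants, a difference of 0.29. Set 3 read 4.34 and 5.10 in Spt5 morphants and 4.76 and 5.13 in control morphants, a difference of -0.22. None of the 3 was called (limma adjusted p = 0.518, 0.0811 and 0.535), and set 4 was too dim to be tested.

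**Figure D2:**
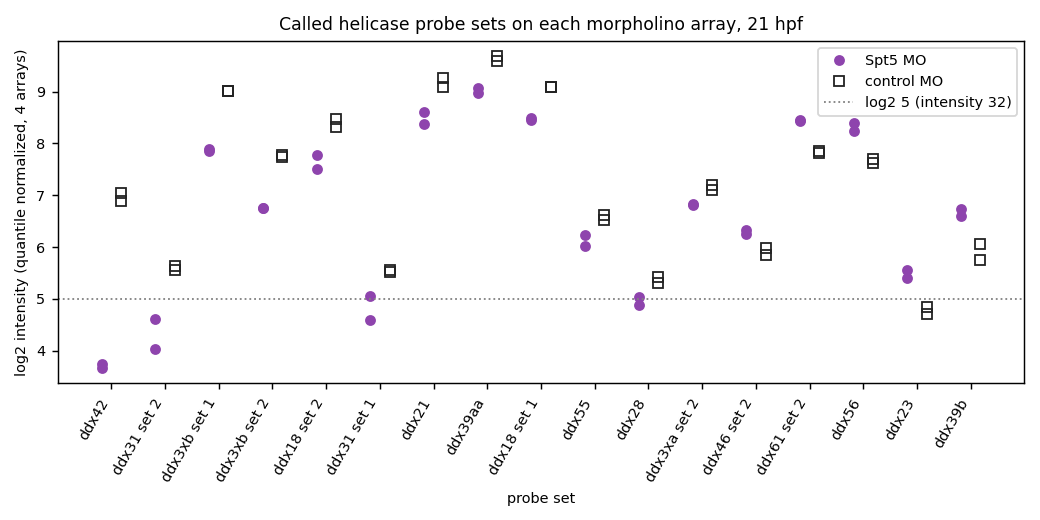
Quantile-normalized log2 intensity (y axis) of the 17 called helicase probe sets (x axis) on each of the 4 morpholino arrays at 21 hpf. Filled circles are the 2 Spt5 morpholino arrays, open squares the 2 control morpholino arrays, and the dotted line marks a log2 of 5. For each of these probe sets the 2 groups do not overlap, and ddx42 has the widest gap. The sets were called on these same arrays, so the lack of overlap adds no support to the calls.

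Helicases of mRNA export, translation, storage and decay numbered 8 genes with 15 probe sets, of which 11 were tested. Of these, 1 rose and 3 fell, with a median of -0.08, where 24.3% of all probe sets tested rose and 23.0% fell. With 1 probe set per gene, 0 of 5 genes rose and 2 fell, where 22.5% and 24.6% of all named genes did. The largest fall was in ddx3xb, one of a pair of zebrafish counterparts of human DDX3X, which helps ribosomes start on mRNAs with structured leaders. Its set 1 read 7.90 and 7.85 in Spt5 morphants and 9.01 and 9.02 in control morphants, a difference of -1.14 ± 0.09 (SE, limma adjusted p = 0.00134). Set 2 read 6.75 and 6.75 in Spt5 morphants and 7.77 and 7.74 in control morphants, a difference of -1.0 ± 0.09 (SE, limma adjusted p = 0.00163). The control level was thus 2.21 and 2.0 times that in Spt5 morphants on the 2 sets, far beyond the spread between arrays of a group.

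The other DDX3X counterpart, ddx3xa, has 3 probe sets, of which set 2 fell. Set 2 read 6.83 and 6.81 in Spt5 morphants and 7.11 and 7.19 in control morphants, a difference of -0.33 (limma adjusted p = 0.0363). Sets 1 and 3 differed by -0.09 and -0.08 and were not called, and the call on set 2 was lost without any 1 of the 4 arrays, at differences of -0.38 to -0.29. Against untreated embryos, however, all 3 sets fell in Spt5 morphants, with differences of -0.60, -0.50 and -0.65. With the control morpholino the same sets differed from untreated embryos by -0.51, -0.17 and -0.57, none called (limma adjusted p = 0.0919, 0.424 and 0.0783). For ddx3xb the differences from untreated embryos were -1.11 and -1.42 in Spt5 morphants, both called, and 0.04 and -0.42 in control morphants, neither called.

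ddx61, a close zebrafish paralog of the mRNA decapping and translational repression factor ddx6, rose on 1 of 3 probe sets. Set 2 read 8.46 and 8.43 in Spt5 morphants and 7.85 and 7.81 in control morphants, a rise of 0.61 ± 0.09 (SE, limma adjusted p = 0.00557) that was not called as deposited. Set 1, at 9.77 and 9.75 in Spt5 morphants and 9.48 and 9.54 in control morphants, differed by 0.25 (limma adjusted p = 0.0745). Set 3, at 7.73 and 7.56 in Spt5 morphants and 7.27 and 7.36 in control morphants, differed by 0.33 (limma adjusted p = 0.0558). On none of the 3 sets did the groups overlap, which says little with 2 arrays a group. The share of all probe sets without overlap was not counted. Against untreated embryos the 3 sets differed by 0.34, 0.43 and -0.21 in Spt5 morphants, and only set 2 was called. ddx6 itself was below a log2 of 5 on all 4 arrays on both of its sets, as were ddx19a, a helicase of mRNA export, and dhx34, a factor of nonsense-mediated decay.

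ddx19b, the other counterpart of the export helicase that acts at the nuclear pore, differed by -0.04 and -0.13 on its 2 sets and was not called. On set 2 it read 7.70 and 7.62 in Spt5 morphants and 7.83 and 7.76 in control morphants. In the fit over 5 arrays that set fell by 0.53 on the log2 scale in Spt5 morphants against untreated embryos (limma adjusted p = 0.0205), and it differed by -0.39 in control morphants (limma adjusted p = 0.140). dhx29, which aids scanning by the small ribosomal subunit, was at 0.40 between the morpholinos (limma adjusted p = 0.0541), and at 0.54 and called without control morpholino replicate 1 (limma adjusted p = 0.0373).

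The remaining roles held few calls. Helicases of transcription, microRNA processing, tRNA ligation and snRNP assembly, ddx1, ddx5, ddx17 and ddx20, had 6 probe sets and a median of -0.05. Of these, 0 were called in limma, where 24.3% of all probe sets tested rose and 23.0% fell, and 0 had an unadjusted p under 0.05. ddx1, of the tRNA ligase complex, was at -0.50 with a 95% interval of -1.0 to 0.01. It was at -0.76 and called without Spt5 morpholino replicate 1 (limma adjusted p = 0.0226), at -0.22 without replicate 2, and at -0.82 and called with spike-in centring (limma adjusted p = 0.0120). ddx28, which assembles the large subunit of the mitochondrial ribosome in human cells, read 4.88 and 5.03 in Spt5 morphants and 5.31 and 5.43 in control morphants, a difference of -0.41 (limma adjusted p = 0.0283). It was not called without Spt5 morpholino replicate 1, at -0.33, without replicate 2, at -0.49, or without control morpholino replicate 1, at -0.47, and it was not tested without control morpholino replicate 2. In untreated embryos it read 4.96, below a log2 of 5. With that value raised to 5, the mean of control morphants was 1.33-fold above it, at a measured difference of 0.45. ddx28 was not called in either comparison with that array. dhx32a differed by 0.04. dhx57 and the DNA helicase ddx11 were below a log2 of 5 on all 4 arrays.

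Over all roles, 27 tested helicase probe sets had no call. Their differences ran from -0.50 to 0.40, and their 95% intervals reached 0.23 to 0.71 to either side on the log2 scale. Of these, 6 had an unadjusted p under 0.05 in limma, and the share over all uncalled probe sets was not counted.

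Comparisons with untreated embryos at 21 hpf share arrays with each other and with the comparison of morpholinos. In Spt5 morphants, 2 of 44 tested helicase probe sets rose (ddx56 and ddx61 set 2), where 23.0% of all probe sets did, and 12 fell, where 20.9% did. Those that fell were both sets of ddx18, ddx19b set 2, ddx21, ddx31 set 2, ddx39aa, all 3 sets of ddx3xa, both sets of ddx3xb, and ddx42. The median over the 44 was -0.19, against 0.03 over all 8701 tested. In control morphants, 1 rose (ddx42), where 1.75% of all probe sets did, and 0 fell, where 1.13% did, in limma. Single differences between control morphants and untreated embryos ran from -0.85 to 0.93 on the log2 scale. The few calls therefore do not show that these groups were alike. The lone untreated array was assumed to vary like the injected groups. With any morpholino array left out, fewer probe sets fell in Spt5 morphants, both among the helicases and over the whole array. The number of helicase probe sets that rose depended on which array was left out.

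The second comparison set untreated embryos at 21 hpf against untreated embryos at 5 hpf, which the study used to see how far transcripts change between these ages. At 5 hpf the zebrafish embryo is a late blastula that still holds maternal transcripts, and at 21 hpf it has somites, a heart rudiment and blood precursors. With 1 array per age there is no test, and differences are given as sizes only. Of the 51 helicase probe sets, 45 (33 genes) had a log2 of 5 on at least 1 of the 2 arrays. At 21 hpf, 5 of these (3 genes) were at least 2-fold higher, where 30.2% of all probe sets were, and 14 (10 genes) at least 2-fold lower, where 32.8% were. The share at least 2-fold lower, 31.1%, was near that of the whole array, and the share at least 2-fold higher was 11.1%. The median was -0.39, against -0.16 over all 9294 probe sets considered.

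Scaling moved these numbers as well. The median of all probe sets was at 0.70 as deposited and at 0.68 after spike-in centring, and 13 helicase probe sets were then, under either scaling, at least 2-fold higher and 3 at least 2-fold lower at 21 hpf. Of all probe sets, 4292 of 9619 were at least 2-fold higher and 1705 lower as deposited, and 4230 of 9604 higher and 1740 lower with spike-in centring, so the whole array moved the same way. Of the 45, 33 kept 1 sign under the 3 scalings. These include 12 of the 14 that were at least 2-fold lower after quantile normalization. All 5 that were at least 2-fold higher are also among them. The other 2 scalings raised the difference of every helicase probe set, so these 5 could not turn. Those 2 scalings also gave nearly the same differences as each other. The share of all probe sets that kept 1 sign was not counted.

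ddx61 and ddx6 stood at opposite ends. ddx61 read 9.15 at 21 hpf and 7.42 at 5 hpf on set 1, 7.92 at 21 hpf and 6.44 at 5 hpf on set 2, and 7.76 at 21 hpf and 5.62 at 5 hpf on set 3. At 21 hpf it was thus at 3.33, 2.79 and 4.41 times its level at 5 hpf. ddx6 set 1 read 3.56 at 21 hpf, below a log2 of 5, and 6.06 at 5 hpf, and was at least 2.08-fold lower at 21 hpf. ddx6 set 2 was below a log2 of 5 at both ages. All 3 sets of ddx61 thus ran one way, and the tested set of its paralog the other.

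Other helicases of export and translation were lower at 21 hpf. ddx19b set 2 read 8.09 at 21 hpf and 10.43 at 5 hpf, a difference of -2.35, while set 1 read 8.39 at 21 hpf and 9.21 at 5 hpf, a difference of -0.82. The 2 sets share a sign and differ in size, also as deposited, at -1.32 for set 2 and -0.13 for set 1. ddx3xb differed by -1.70 and -1.02 on its 2 sets, and ddx3xa by -1.21, -1.22 and -1.45 on its 3. These falls were smaller as deposited, at -0.54 and -0.37 for ddx3xb and at -0.69, -0.74 and -1.01 for ddx3xa. In this role, 3 of 12 probe sets considered were at least 2-fold higher, all of ddx61, and 7 at least 2-fold lower. Of all probe sets, 30.2% were higher and 32.8% lower. With 1 probe set per gene, 1 of 6 genes in this role was higher and 4 were lower, where 1772 and 2099 of all 6281 named genes were.

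Splicing and transcription helicases were split between directions. ddx39b was 2.02 times its 5 hpf level at 21 hpf, and ddx17 set 2 was 2.01 times. The ddx39b paralogs ddx39ab and ddx39aa differed by -1.41 and -1.02 after quantile normalization. They differed by 0.23 and 0.30 as deposited and by 0.20 and 0.27 with spike-in centring. ddx5, a co-regulator of transcription, differed by -1.71, and ddx20, of the SMN complex that assembles snRNPs, by -1.28 on set 2. As deposited, ddx5 was at -0.31 and ddx20 set 2 at -0.69. After quantile normalization dhx32a was at least 2.21-fold lower, while it differed by -0.38 as deposited and by -0.41 with spike-in centring. Of 15 ribosome assembly probe sets considered, 2 were at least 2-fold lower, both of ddx31 (-1.34 and -1.38), and 0 at least 2-fold higher. Over the whole array, 32.8% were lower and 30.2% higher. The ddx31 sets differed by -0.64 and -0.79 as deposited. ddx42, at -0.39, was within 2-fold, as were the splicing helicases ddx23, ddx46, dhx15 and dhx16.

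**Figure D3:**
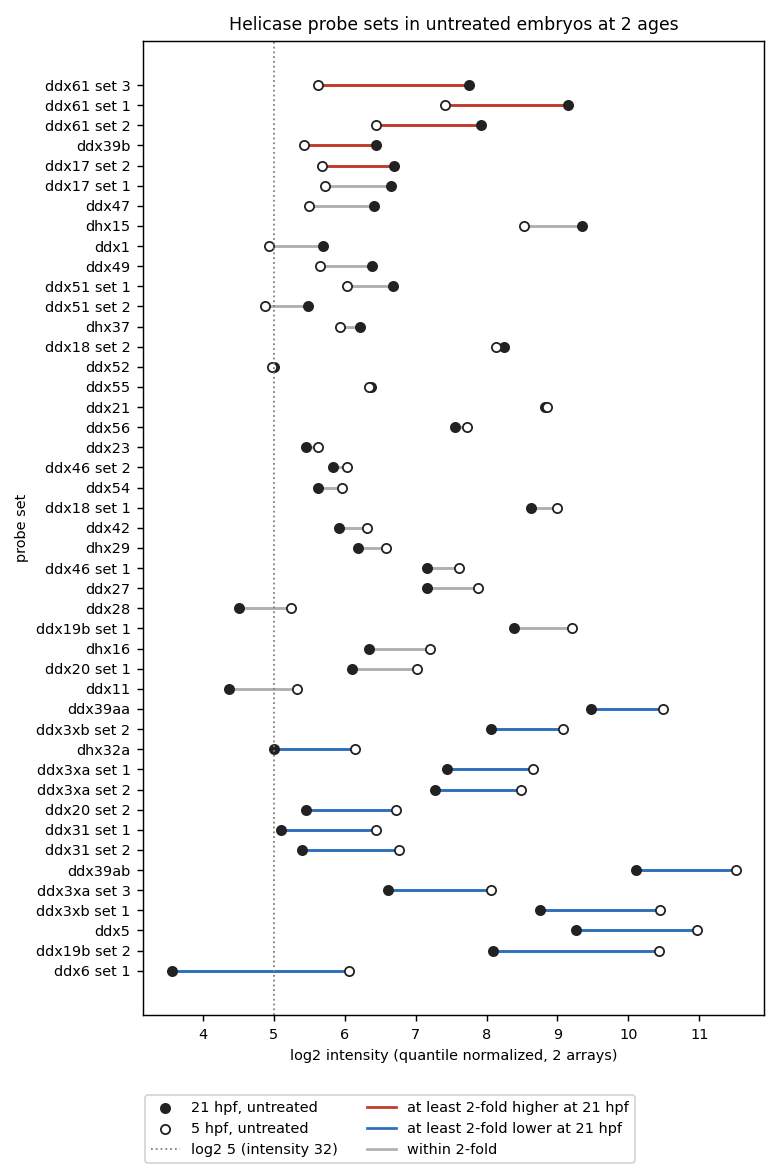
Quantile-normalized log2 intensity (x axis) of the 45 helicase probe sets considered (y axis) in untreated embryos at 21 hpf (filled) and at 5 hpf (open), 1 array each. Red lines join values at least 2-fold higher at 21 hpf, blue lines at least 2-fold lower, grey lines within 2-fold, and the dotted line marks a log2 of 5. The 3 sets of ddx61 head the higher end, and ddx6 set 1 and ddx19b set 2 the lower.

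The age and morpholino differences come from different arrays and can be read side by side. Among the 5 helicase probe sets at least 2-fold higher at 21 hpf and tested on the morpholino arrays, 2 rose and 0 fell in Spt5 morphants. Among 25 within 2-fold, 3 rose and 6 fell, and among 13 at least 2-fold lower at 21 hpf, 0 rose and 6 fell. Over all probe sets of the array, of 2749 at least 2-fold higher at 21 hpf, 21.1% rose and 29.1% fell in Spt5 morphants. Of 3307 within 2-fold, 21.4% rose and 23.3% fell, and of 1762 at least 2-fold lower, 27.9% rose and 17.6% fell. Across probe sets the 2 differences correlated with r = 0.27 over the 43 helicase probe sets and r = -0.17 over all 7818. Several of these probe sets belong to 1 gene and all were read from the same arrays, so the correlations only describe these values, and whether the helicases differ from other genes here was not tested.

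**Figure D4:**
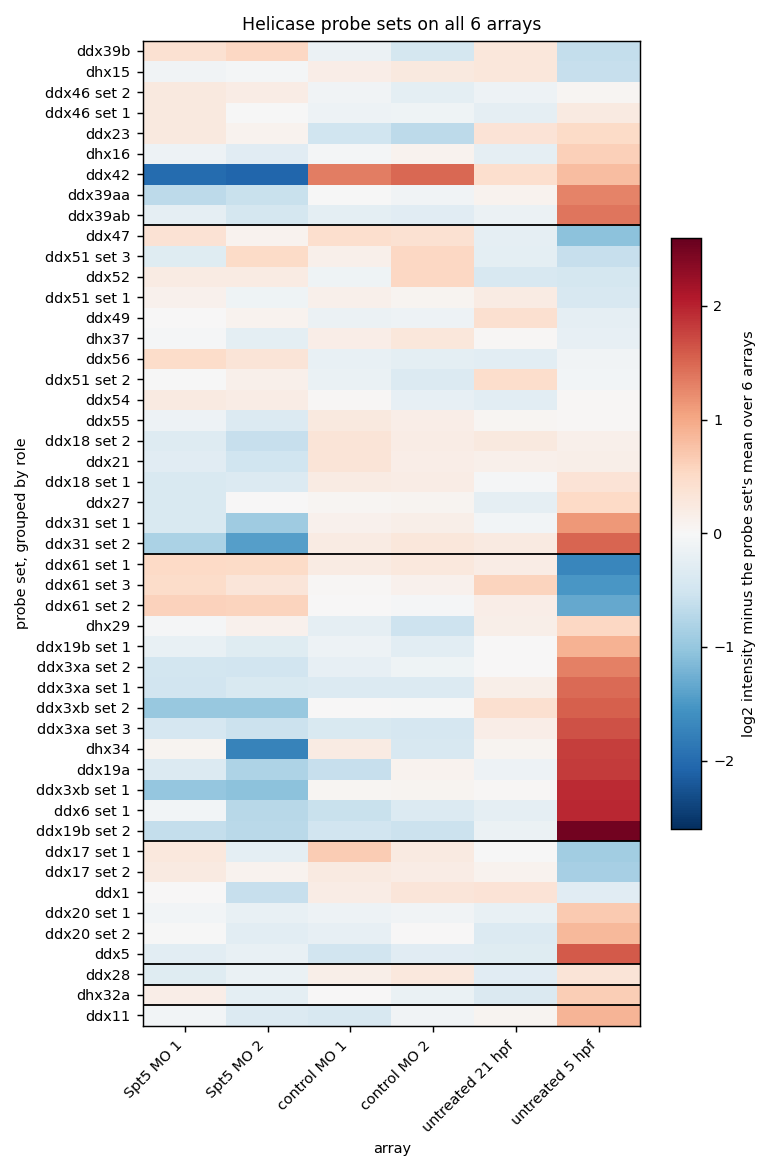
Log2 intensity on all 6 arrays (x axis) of helicase probe sets that reach a log2 of 5 on at least 1 of them, quantile normalized over the 6 and given as the difference from each probe set's mean (colour, red above and blue below the mean), with rows grouped by role (y axis). ddx42 is dark blue on both Spt5 morpholino arrays, ddx61 is blue and ddx3xa, ddx3xb, ddx6 and ddx19b are red at 5 hpf.

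Other genes that work beside these helicases were counted from lists of partners, with 1 probe set per gene. Over all 5691 named genes tested, 22.5% rose and 24.6% fell in Spt5 morphants, with a median of 0.00. Of 66 other ribosome assembly genes, 7 rose and 9 fell, with a median of 0.03. Among them utp25 (-0.99) and polr1b (-0.98), a subunit of RNA polymerase I, fell, and rcl1 (0.79) and imp3 (0.64) rose, all on the log2 scale. Of the other listed subunits of that polymerase, polr1a rose (0.45), and polr1c (0.06) and polr1e (0.11) were not called.

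Of 56 other spliceosome genes, 2 rose and 13 fell, with a median of -0.11. The largest falls were in lsm7 (-0.81) and crnkl1 (-0.74), and the genes that rose were sart3 (0.59) and syf2 (0.31). Of 15 exon junction and export genes, 3 rose and 1 fell, with a median of -0.04: casc3 (0.83) and magoh (0.70), subunits of the exon junction complex, rose, and nup88 (-0.74), of the nuclear pore, fell. Of 30 decay and translation genes, 2 rose and 8 fell, with a median of -0.21, among them the poly(A)-binding protein gene pabpc4 (-1.36). lsm1, of the decapping activator, was at least 1.28-fold lower, and eif4g2b (0.76) and eif4h (0.32) rose. Among 5 relatives whose symbols do not start with ddx or dhx, the translation helicase eif4a1b fell (-1.05) and dicer1, an RNase with a helicase domain, rose (0.63).

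Markers of cell types also moved in Spt5 morphants, and in whole embryos fewer cells of a type and less RNA per cell cannot be told apart. All 15 tested markers of proliferating cells fell, with a median of -1.27. Their summed intensity over 22 probe sets was 4250 and 4200 in Spt5 morphants and 10000 and 10000 in control morphants. Of 13 skeletal muscle markers 11 fell and 1 rose (median -1.96), with sums of 6510 and 6480 in Spt5 morphants and 13100 and 13000 in control morphants. All 6 erythroid markers fell (median -2.57), with sums of 585 and 538 in Spt5 morphants and 4380 and 4210 in control morphants. Of 8 blastula and gastrula markers 7 rose and 0 fell (median 1.04), with sums of 2270 and 2390 in Spt5 morphants and 1510 and 1570 in control morphants. These 8 are not early genes alone. In untreated embryos tbxta and sox3 were higher at 21 hpf than at 5 hpf, by 2.49 and 1.12 on the log2 scale. The others differed by -0.28 to -7.18 between these ages, with 1 array per age. Neither of 2 tested germ cell markers was called or had an unadjusted p under 0.05, and that list summed to 209 and 234 in Spt5 morphants and 177 and 182 in control morphants. No marker value was listed at 0. The part of these shifts in the helicase differences was not tested.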

How the data were processed

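Groups were taken from the sample titles. Per the labels' protocols, RNA was extracted with Sepasol and RNeasy and labelled by a one-cycle protocol. The authors deposited linear intensities, 1 per probe set and array. The submitters' processing notes name GCRMA. Its version and settings are not given here in any source.

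Log2 intensities were quantile normalized over the 4 morpholino arrays, the 5 arrays at 21 hpf, or the 2 untreated arrays, without the 115 control probe sets. Probe sets were tested at a log2 of at least 5 (intensity 32) on at least 2 arrays of the fit, or considered at 5 on 1 of the 2 untreated arrays. Tests were two-sided with limma 3.58.1 (lmFit, eBayes) under R 4.3.3, with Benjamini-Hochberg adjustment over all tested probe sets at 0.05. The script was tested on simulated data. Where a group lay wholly below log2 5, its values were raised to 5 and the fold given as a limit. Such a limit holds for group means on the scaling used and does not cover the spread between arrays.

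Whether replicate arrays hold separate clutches is not stated in the labels. The p-values therefore cover the spread between these arrays alone, and that spread may be technical. The median SD within groups was 0.11 for helicase probe sets, with 2 residual degrees of freedom. Precision is limited by how few arrays there are. Names come from the platform annotation, updated through Entrez identifiers to RefSeq, GRCz12tu, in which all 51 helicase probe sets were found. Of all probe sets, 10802 had 1 gene symbol, 135 several and 4680 none. Members, roles, partner and marker lists were chosen with earlier results of these data known. Values on every array were planned for differences of at least 0.8, for ages at least 4-fold apart and for genes whose probe sets disagree in sign, and were added for the other called members. Of the partner lists, the 2 largest called differences in each direction are named, with the other RNA polymerase I subunits beside polr1b. Protein and promoter sequences were not used here. Alternatives were other scalings, filters, 1 probe set per gene, a replicate block, the spread over 5 arrays, control morpholino embryos in place of untreated ones, and each morpholino array left out.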

Additional observations from a re-analysis of the deposited data

How the results depend on the processing

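With 2 arrays a group, no helicase probe set turned its sign past the threshold, and 16 of 44 stayed on the same side of the threshold under every alternative tested. Both sets of ddx3xb and ddx42 kept their call wherever tested. Numbers of helicase probe sets were as follows. For the Spt5 against the control morpholino (5 rose, 12 fell), values as deposited gave 0 higher, spike-in centring 23 lower, and no filter, which tests 15502 probe sets, 0 higher and 3 lower (342 and 532 over all). Left-out arrays gave 3 to 5 higher and 6 to 11 lower. A replicate block gave 5 higher and 14 lower, adding dhx15 and ddx17 set 1, where 2304 and 2135 of all 8457 were higher and lower. The labels do not say that numbers pair the samples, and deviations of same-numbered arrays correlated at 0.25. For the Spt5 morpholino against untreated embryos (2 rose, 12 fell), values as deposited gave 0 higher and 5 lower, spike-in centring 0 and 24, no filter 0 and 2, and a filter at log2 6 gave 5 higher. Over all probe sets these settings gave 255 higher and 1270 lower of 8821, 926 and 3408 of 8739, 293 and 356 of 15502, and 1733 higher of 6156. Leaving out any morpholino array lowered the number that fell, among the helicases and over all probe sets alike. For the control morpholino against untreated embryos (1 rose, 0 fell), the number higher was 0 as deposited, with no filter and with any array left out. The number lower was 1 with spike-in centring, 1 with quantiles over 6 arrays, and 3 with the filter at log2 6. Over all probe sets, the number higher in control morphants was also smaller as deposited, with no filter and with any array left out. The number lower over all probe sets was larger with the filter at log2 6. For the ages (5 higher, 14 lower), values as deposited and spike-in centring each gave 13 higher and 3 lower. Quantiles over 6 arrays gave 3 higher, where 2881 of all 9706 were. As-deposited values centred on the median difference, an alternative chosen after seeing the data, also gave 3 higher. Centring each morpholino array on its median, chosen likewise, gave 7 higher and 10 lower. Numbers over all probe sets are not given here for either alternative, so whether the whole array moved with the helicases cannot be read from them. The cause of these shifts was not tested. Without the filter, dim probe sets enter both the limma fit and the adjustment, and their parts were not separated.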
